A study of Oryza sativa with 10 samples.

Results

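The long arm of rice chromosome 11 was taken as the stretch from 14 to 28 Mb in the MSU7.0 build, and its accessible sites were profiled in 1 Mb windows. ATAC-seq peaks of all 10 deposited lists that overlapped by at least 1 bp were merged into sites, and sites whose midpoint fell in this stretch were kept, whatever their height or change. This gave 622 of the 33382 sites of the series, out of 1396 on chromosome 11. At the boundaries of the arm, the first site inside was chr11:14014590-14015015 and the last was chr11:27997528-27997627, and the nearest sites left outside were chr11:13996430-13996682 and chr11:28005249-28005562.

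The study asked how light and 2 sprayed hormones, indole-3-acetic acid (IAA, an auxin) and abscisic acid (ABA), altered chromatin accessibility in rice (Oryza sativa) seedlings. The 5 groups had 2 lists each. All were seedlings of the indica cultivar YD6 that germinated in darkness. They were sampled in the dark (0 h), after 8 h of light, after 24 h of light, or at 24 h of light shortly after a spray with IAA or with ABA, so 24 h of light was the reference for both hormones. A mock spray was not analysed here, so the hormone and the spraying cannot be told apart. Whole seedlings hold many cell types, and a change in the share of a cell type cannot be told apart from a change within cells.

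In ATAC-seq, the Tn5 transposase cuts DNA that is not covered by nucleosomes, and the cut ends pile up over promoters and other regulatory elements in use. Open sites are usually dense where genes are dense and sparse where transposons fill the chromosome. The long arm of rice chromosome 11 is known for clusters of disease resistance genes, among them nucleotide-binding leucine-rich-repeat genes and receptor-like kinases that act in defence against bacterial blight and blast fungus. Moving dark-grown seedlings into light starts greening and leaf expansion, auxin promotes growth, and ABA acts in dormancy and in responses to drought.

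Each peak carried a fold over background and a p-value from the peak caller, and from both the pileup was solved, that is, the whole number of tags stacked over the summit. The 2 lists of a group resembled each other closely. At sites of the arm called in both lists, the summits lay on the same base at 35.4% to 82.9% of sites within groups, against 1.30% to 5.90% between groups. The chi-square per shared site, a measure of how far the pileups of a pair of lists differ in units of counting noise, was between 0.0125 and 0.0955 within groups and between 0.579 and 0.857 between groups. The 2 lists of a group thus differed far less than lists of different groups, and were counted as 1 sample. Between groups the values also lay below 1, the level for independent counts with counting noise alone, and over all sites of the series between 0.571 and 1.05. Only sites that passed the calling limit in both lists enter, each with its highest pileup. A value of 1 is therefore not a sure mark of noise here, and no conclusion on differences between groups is drawn from it. The study describes its ATAC-seq libraries as biological replicates, and whether the reads overlap as the peak lists do was not checked. With n = 1 per group, no difference between groups had a replicate check, and no test across samples was possible. Intervals given for shares are 95% Wilson intervals, which cover counting error only. The peak lists hold no read totals, and those of the study were not used here.

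Open sites were sparse along the arm. It held 44.4 sites per Mb, against 51.6 on the rest of chromosome 11, 133.9 on the arms of chromosome 3 (midpoint outside 16 to 23 Mb) and 89.4 over all 12 chromosomes. Merged sites covered 157 kb, or 1.12% of the arm. The covered share was 1.33% on the rest of chromosome 11, 3.99% on the arms of chromosome 3 and 2.55% over the series. The arm and the rest of the same chromosome were therefore close to each other, and the arms of chromosome 3 stood at the other end.

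Single sites on the arm were somewhat narrower than over the series, and about as wide as on the rest of chromosome 11. Their median width was 212 bp (95% interval of the median 202 to 224 bp), with quartiles at 147 and 309.75 bp. The median was 212.5 bp on the rest of chromosome 11, 241 bp on the arms of chromosome 3 and 232 bp over the series. Sites of at least 800 bp were 8 of 622 on the arm (1.29%), against 2.01% of all sites. The share of sites called in all 10 lists was nearly the same as elsewhere, with 184 of 622 sites (29.6%, interval 26.1% to 33.3%) on the arm and 28.5% in the series. Sites of the arm were thus fewer, but as often shared by all conditions.

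Width and pileup went together with the number of lists that called a site. In part this follows from the definitions. A site spans the merged peaks of all lists that call it, and a higher pileup passes the limit of more lists. The 64 sites called in a single list had a median width of 109 bp and a median pileup of 18 tags. The 120 sites called in 2 lists had 140.5 bp and 19.5 tags. The 184 sites called in all 10 lists had 339.5 bp and 30.75 tags.

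The spacing of neighbouring sites carried the low density. The median distance between midpoints was 7183 bp (95% interval of the median 6127.5 to 8451.5 bp), while the mean was 22516.5 bp, so a small number of long stretches without a site made up much of the arm. The median was 6576.5 bp on the rest of chromosome 11, 4121 bp on the arms of chromosome 3 and 4653 bp over the series. Distances of 100 kb or more made up 34 of 621 on the arm (5.48%), against 3.50% on the rest of chromosome 11, 0.0762% on the arms of chromosome 3 and 1.16% over the series. At the short end, 61 distances (9.82%) were at most 1 kb, against 12.6%, 17.3% and 16.7% in the same 3 regions. Both ends of the distribution were shifted, as the plot of spacing shows.

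**Figure D1:**
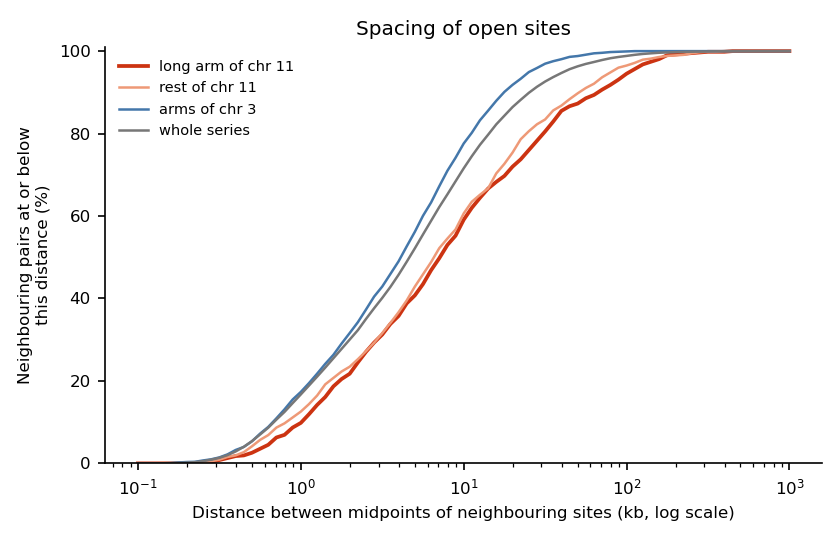
Cumulative share of neighbouring site pairs (%) against the distance between their midpoints (kb, log scale) for the long arm of chromosome 11, the rest of that chromosome, the arms of chromosome 3 and the whole series. The arm has the lowest curve at 1 kb (9.82%), and 5.48% of its distances are 100 kb or more.

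The longest stretch without any peak in the 10 lists ran from base 16305800, the end of a site called in all 10 lists, to base 16726060, the start of a site called in 2 lists. The midpoints were 420.5 kb apart. The second ran from base 18115128 to base 18423158 (308.1 kb), and the third from base 22660506 to base 22922315 (262.0 kb). The site that closed the second stretch, chr11:18423158-18423273, was called at 24 h of light only and is described below. Whether the gaps hold sequence to which reads could be mapped was not tested.

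Along the arm, the 14 windows held between 29 and 67 sites, with a median of 42.5. The most sites lay in the window from 19 to 20 Mb (67) and the next from 20 to 21 Mb (63). The fewest lay from 16 to 17 Mb (29), which contains the longest gap, and from 21 to 22 Mb (30). Over the 367 whole windows of the 12 chromosomes the median was 88 sites and the range 4 to 223. All 14 windows of the arm lay below that median, and 11 of them lay below the lower quartile of 51.5 sites.

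Windows with more sites also tended to have wider ones. The median width per window was between 184.5 bp at 26 to 27 Mb and 275 bp at 23 to 24 Mb, and Spearman's rho between number and median width over the 14 windows was 0.62, given as a description, since windows of one chromosome share the same libraries. The window from 23 to 24 Mb stood out in another way, since 19 of its 43 sites (44.2%) were called in all 10 lists. In the window from 21 to 22 Mb this was 3 of 30 sites (10.0%), and from 17 to 18 Mb it was 7 of 42 (16.7%).

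Dark seedlings had the most peaks on the arm. The lists held 496 and 523 peaks in the dark, 324 and 307 at 8 h and 352 and 321 at 24 h of light. With ABA there were 282 and 265 peaks and with IAA 399 and 417, against 352 and 321 at 24 h. No list of another group reached the dark lists, the ABA lists were the shortest, and the IAA lists lay above both 24 h lists.

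In light, the number of peaks was further below that in the dark on the arm than over the series, while with ABA it was less far below that at 24 h. The mean number of peaks at 8 h was 0.619 of that in the dark, against 0.817 for the whole lists. At 24 h it was 0.660 of the dark mean, against 0.766. At 24 h it was 1.07 times the 8 h mean, against 0.936 for the whole lists, so the arm had slightly more peaks at 24 h where the whole lists had fewer. With ABA the ratio to 24 h was 0.813 on the arm and 0.685 for the whole lists, and with IAA it was 1.21 on the arm and 1.24 for the whole lists. Accordingly, the arm held 2.06% of all peaks in the dark, 1.56% at 8 h and 1.78% at 24 h, and it held 2.11% with ABA and 1.74% with IAA.

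The number of tags that a call required differed between groups and bears on all these counts. The lowest local background, which rose with the relative size of the library, averaged 3.15 tags in the dark, 4.15 at 8 h and 4.21 at 24 h. It averaged 5.45 tags in the ABA lists and 4.14 in the IAA lists, against the 4.21 at 24 h. A peak over this lowest background took 11 tags in the dark and 13 or 14 tags at 8 h and 24 h, while it took 16 tags in the ABA lists and 13 in the IAA lists. The pileup at the sites of the arm called in all lists was nearly level. Its group mean was 31.5 tags for dark, 30.5 for 8 h and 30 for 24 h, and 30 tags for ABA and 33 for IAA. Low sites could thus be called in the dark at heights that were not called in other groups. Each balance of gains and losses below is therefore also given at a common relative height, for which every list had to reach the same height relative to its own scale. Of the 3 scales, the median pileup at sites called in all lists had been planned, and the summed pileup and the library size were added after seeing the data. The scale by library size did not level the calling heights in tags. It asked for 11 and 12 tags in the dark lists, 15 and 16 at 8 h and at 24 h, and 20 and 19 in the ABA lists. It removed no site of the arm from the dark lists. In each range below, the end nearest the deposited value came from this scale.

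The dark mean was the highest of the 5 groups, or tied for it, in 14 of 14 windows, and lay between 19.5 called sites at 16 to 17 Mb, where the IAA mean was the same, and 58 at 19 to 20 Mb. The 8 h means lay between 12.5 and 37.5 sites and the 24 h means between 10.5 and 39.5. The ABA means lay between 8.5 sites, at 21 to 22 Mb, and 36.5 sites, and were below 24 h in 11 of 14 windows. The IAA means lay between 19.5 and 46.5 and were above 24 h in 14 of 14 windows. Between 24 h and 8 h there was no such order, with 24 h higher in 7 windows and lower in the other windows.

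**Figure D2:**
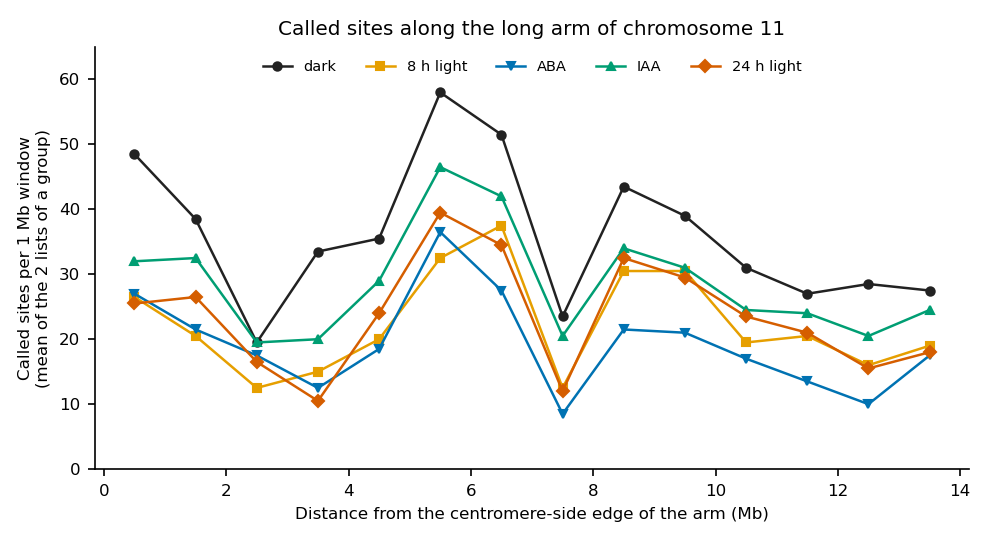
Called sites per 1 Mb window (mean of the 2 lists of a group) against the distance from the centromere-side edge of the arm (Mb), for dark, 8 h of light, ABA, IAA and 24 h of light. Dark is highest or tied highest in all 14 windows and peaks at 58 sites, and the ABA means lie between 8.5 and 36.5 sites.

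A site counted as gained if both lists of the group called it and neither list of its reference did, and as lost in the converse case. Sites with both lists of both groups were called kept. At 8 h of light, 18 sites of the arm were gained against dark, 174 were lost and 271 were kept. Gained sites were 2.89% of the sites of the arm, against a background of 6.19% of all 33382 sites. Lost sites were 27.97%, against a background of 16.9%. Of the sites open in the dark on the arm, 36.4% were lost at 8 h (interval 32.2% to 40.8%).

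Losses thus made up 90.6% of the sites of the arm that changed at 8 h (interval 85.7% to 94.0%), against 73.2% over the series. At the 3 common heights the share was between 83.8% and 90.7% on the arm, between 72.8% and 80.7% on the rest of chromosome 11, between 34.0% and 56.3% on the arms of chromosome 3 and between 56.2% and 73.8% over the series. As deposited, the share of the arm was above those of all 11 other chromosomes, which lay between 61.7% and 82.0%. With every list cut to the length of the shortest, the arm had 25 gains and 83 losses (lost share 76.9%), and the series was near an even split (49.7%). Equal lengths bring the series near an even split by construction, here and in the comparisons below. Its value under this setting is therefore not a result, and only the place of the arm beside it can be read.

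At 24 h of light against dark, 13 sites were gained, 161 were lost and 282 were kept. Gained sites were 2.09% of the arm, against a background of 4.07%, and lost sites 25.9%, against a background of 17.8%. The lost share of changed sites was 92.5% (interval 87.6% to 95.6%) on the arm and 81.4% over the series, and at the common heights 82.8% to 93.1% and 63.4% to 81.9%. With lists of equal length there were 27 gains and 57 losses on the arm (lost share 67.9%), and the lost share of the series was 49.6%. The other 11 chromosomes lay between 75.8% and 85.2%. The few gains rested on 1 list in part, since 21 sites were gained when the second 24 h list was left out. This comparison and the one at 8 h share the dark lists, so their values are set side by side and do not support each other.

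Between 24 h and 8 h of light the arm gained more sites than it lost. There were 50 gained, 38 lost and 235 kept sites. Gained sites were 8.04% of the arm, against a background of 6%, and lost sites 6.11%, against a background of 9.27%. The lost share was 43.2% (interval 33.3% to 53.6%) on the arm, an interval that includes an even split, and 60.7% over the series. At the common heights it was 40.0% to 42.7% on the arm and 57.8% to 60.7% over the series. With lists of equal length there were 46 gains and 19 losses on the arm (lost share 29.2%), and the lost share of the series was 50.3%. All 11 other chromosomes lay higher, between 51.25% and 67.4%.

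With ABA, 33 sites were gained against 24 h, 77 were lost and 217 were kept. Gained sites were 5.31% of the arm, against a background of 3.36%, and lost sites 12.4%, against a background of 17.8%. The lost share was 70.0% (interval 60.9% to 77.8%) on the arm and 84.2% over the series, with 63.1% to 71.3% and 79.7% to 85.7% at the common heights. Here too the arm lay outside the range of the 11 other chromosomes, 79.8% to 88.0%, in this case below it. With every list cut to the length of the shortest, the arm had more gains than losses with ABA, 63 against 38 (lost share 37.6%). The series was near even (50.8%), as equal lengths impose.

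With IAA, 71 sites were gained against 24 h, 27 were lost and 267 were kept. Gained sites were 11.4% of the arm, against a background of 13.2%, and lost sites 4.34%, against a background of 3.83%. The lost share was 27.6% (interval 19.7% to 37.1%) on the arm, and the value of the series, 22.5%, fell within this interval. At the common heights it was 28.7% to 39.8% on the arm, and at the highest of these, with 50 gains and 33 losses, the interval of 29.9% to 50.5% included an even split. Over the series it was 23.3% to 37.7%. With lists of equal length, which bring the series near even by construction (lost share 51.1%), the arm had 32 gains and 39 losses. Without the second 24 h list there were 41 losses. The balance with IAA was therefore not shown to differ between the arm and the rest of the genome.

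**Figure D3:**
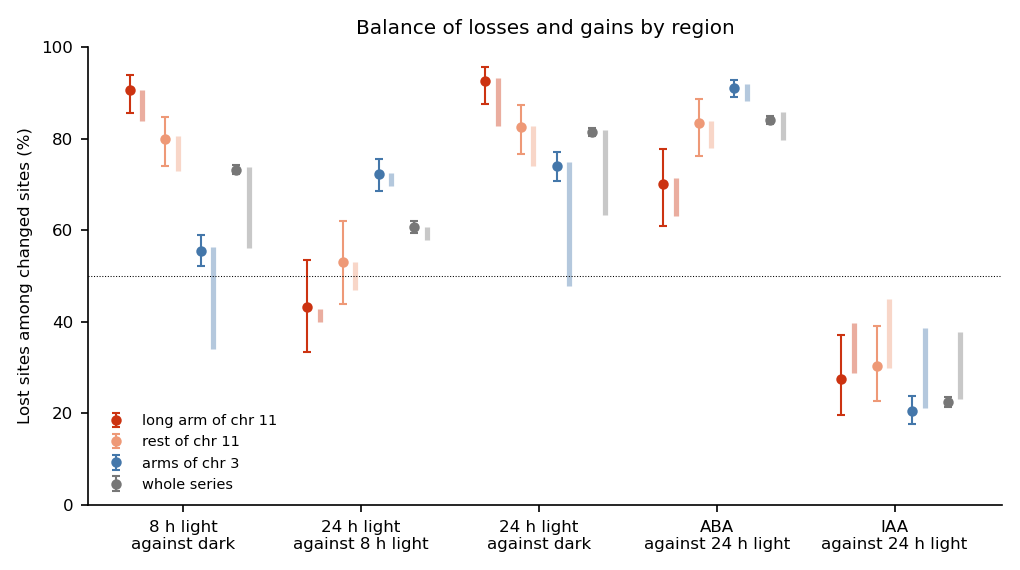
Lost sites as a percentage of sites that changed, for 5 comparisons and 4 regions; points are the deposited calls with 95% Wilson intervals, pale bars the range over 3 common relative heights, and the dotted line an even split. The arm is highest for 8 h against dark (90.6%) and 24 h against dark (92.5%), and lowest for 24 h against 8 h (43.2%) and ABA against 24 h (70.0%).

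For 4 of the 5 comparisons, all but IAA, the lost share of the arm lay on the same side of all 11 other chromosomes as deposited and under each of the 7 alternatives tried over the whole series. These were a stricter peak threshold, lists of equal length, a cover of 50%, presence in either list and the common heights by 3 scales. The common height by library size left the dark lists of the arm as deposited and the other lists nearly so. For IAA it lay above all 11 in the deposited lists and at 2 of the common heights, and among them in the other settings. The arm of 14 Mb is set here beside whole chromosomes, each with more changed sites, so it could lie at an extreme more easily. No other arm or stretch of like size was ranked. The 7 alternatives reuse the same lists and are not independent of each other.

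Across whole chromosomes the lost share went with site density. Over the 12 chromosomes, Spearman's rho between sites per Mb and the lost share was -0.89 for 8 h against dark, -0.78 for 24 h against dark, 0.86 for 24 h against 8 h, 0.80 for ABA and -0.45 for IAA. These are descriptions over points that share the same libraries. Chromosome 11 has the fewest sites per Mb (48.1) and chromosome 3 the most (124.1). The rest of chromosome 11 was nearly as sparse as the arm, and its values lay apart from those of the arm in some comparisons only. Its lost share was 79.9% (interval 74.0% to 84.7%) at 8 h against dark, which lay below that of the arm with no overlap of the intervals and below those of chromosomes 10 (80.5%) and 12 (82.0%). At 24 h against dark it was 82.6% (interval 76.6% to 87.4%), again below the arm with no overlap. Both separations are of the deposited calls, and of the common heights they held by library size only. By median pileup the intervals of arm and rest overlapped, with 77.0% to 88.9% and 66.0% to 78.7% at 8 h against dark. At 24 h against dark they were 75.6% to 88.3% and 66.7% to 80.3%. By summed pileup they overlapped as well. With ABA the deposited lost share of the rest was 83.3% (interval 76.2% to 88.6%), above those of chromosomes 5, 6, 7, 8, 10 and 12, and this interval overlapped that of the arm. For 24 h against 8 h it was 53.0% (interval 44.0% to 61.9%) and for IAA 30.3% (interval 22.7% to 39.0%). Both of these intervals overlapped those of the arm. The part of site density in these values was not tested.

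**Figure D4:**
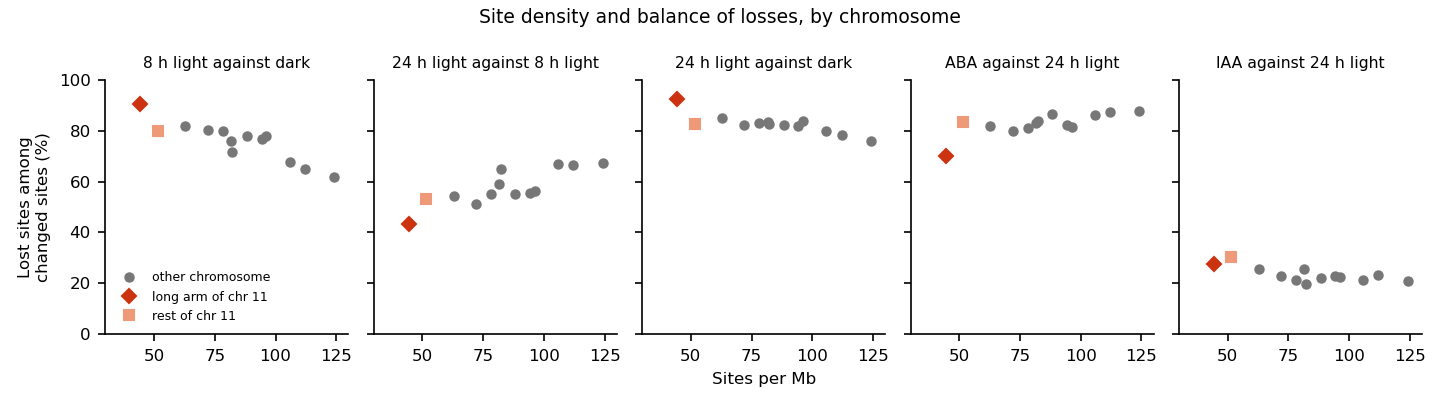
Lost sites as a percentage of changed sites against sites per Mb, 1 panel per comparison; grey circles are the 11 other chromosomes, the red diamond the long arm of chromosome 11 and the orange square the rest of that chromosome. The arm, at 44.4 sites per Mb, lies beyond the end of the order of chromosomes in the panels of 8 h against dark (90.6%) and ABA against 24 h (70.0%).

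Window by window, losses exceeded gains in 14 of 14 windows for 8 h against dark and for 24 h against dark. At the common height by median pileup this held in 14 and 13 windows, with 1 window even at 24 h against dark. The share of dark sites lost at 8 h was lowest from 23 to 24 Mb, with 7 of 37 sites (18.9%, interval 9.48% to 34.2%). It was highest from 17 to 18 Mb, with 14 of 29 sites (48.3%, interval 31.4% to 65.6%). These extremes were picked out of 14 windows, and their intervals overlap. The window from 17 to 18 Mb was also the one with the highest lost share at 24 h against dark, where 17 of 29 sites (58.6%) were lost.

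The other comparisons were less uniform. For 24 h against 8 h, 4 windows had more losses, 7 more gains and 3 were even, with at most 8 gains (19 to 20 Mb) and 6 losses (20 to 21 Mb) in a window. ABA had more losses in 10 windows and more gains in 4, namely from 14 to 15, 16 to 17, 17 to 18 and 27 to 28 Mb. From 22 to 23 Mb there were 9 losses and no gain with ABA. IAA had more gains in 12 windows, more losses in 1 (24 to 25 Mb, with 3 gained and 4 lost) and 1 even window. At the common height, IAA had more gains in 7, more losses in 2 and was even in 5, so the uniform gain with IAA did not hold there.

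**Figure D5:**
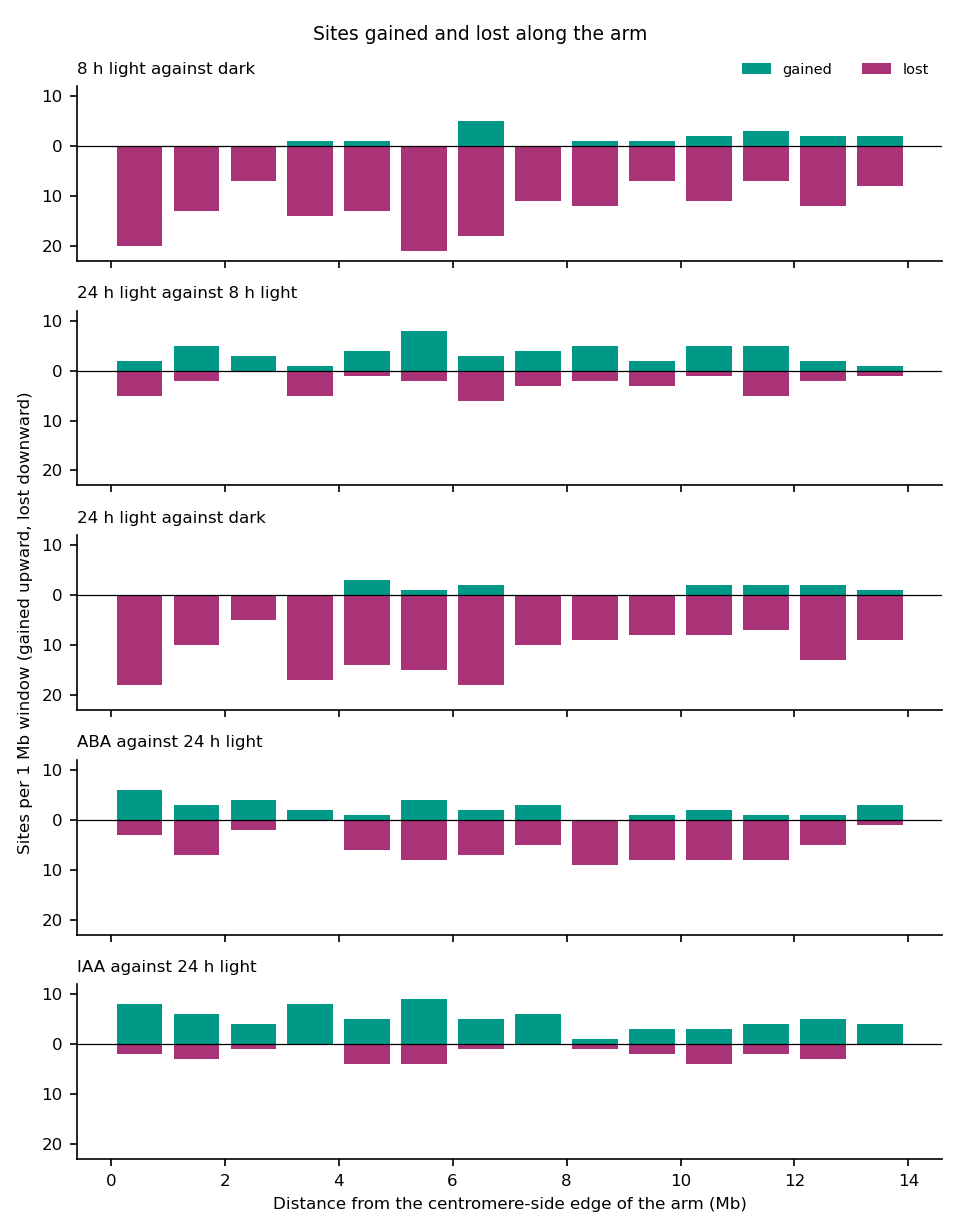
Sites gained (upward) and lost (downward) per 1 Mb window against the distance from the centromere-side edge of the arm (Mb), 1 panel per comparison. Losses exceed gains in all 14 windows for 8 h against dark and 24 h against dark, and gains exceed losses in 12 windows for IAA against 24 h.

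Sites open in the dark and nowhere else were the most frequent changing class. Both dark lists and no list of another group called 78 sites of the arm (12.5%, interval 10.2% to 15.4%), against 6.95% of all sites. At the common heights these were 10.7% to 12.7% of the sites of the arm and 5.14% to 7.19% of the series, and with lists of equal length 5.69% (interval 3.85% to 8.32%) of the arm and 3.28% of the series. The part of the lower calling height of the dark lists in these shares was not tested further. Sites of the other single groups were fewer. Sites open at 8 h alone were 6 (0.965%, against 2.25% of all sites), at 24 h alone 7 (1.13%, against 0.860%), with ABA alone 5 (0.804%, against 0.590%) and with IAA alone 18 (2.89%, against 3.75%).

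Among the larger classes, sites called in both lists of dark, 8 h, 24 h and IAA but in no ABA list numbered 29 (4.66%, interval 3.27% to 6.62%), against 8.88% of all sites. Sites called in one list of a group only, which enter no class, were 198 (31.8%), against 33.7% of all sites.

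The 174 sites that were lost at 8 h were followed through the other groups. At 24 h 38 of them (21.8%) were called in both lists, against 20.8% of the sites lost over the series. With ABA 31 (17.8%) were called, against 15.5% in the series, and with IAA 56 (32.2%), against 36.7%. These shares were near those of the series. Of the 161 sites lost at 24 h against dark, 26 (16.1%, interval 11.3% to 22.6%) were called at 8 h, against 25.7% over the series, and 43 (26.7%, interval 20.5% to 34.0%) with IAA, against 35.7%, both below the series. With ABA 24 of them (14.9%) were called, against 11.4%. The base differed in the same directions. Among all sites, both 8 h lists called 293 of 622 on the arm and 18656 of 33382 in the series. For IAA the counts were 366 and 20997, and for ABA 262 and 12220. How far the shares follow this base was not tested.

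Sites gained at 24 h or with IAA often had a peak in the dark as well, as sites of the arm did in general. Both dark lists called 478 of the 622 sites of the arm and 22564 of the 33382 sites of the series. On the arm, the share among gained sites was near that of all its sites for 24 h and lower for IAA. Of the 50 sites gained at 24 h against 8 h, 38 (76.0%, interval 62.6% to 85.7%) were called in the dark, against 58.4% over the series. Of the 71 sites gained with IAA against 24 h, 43 (60.6%, interval 48.9% to 71.1%) were called in the dark, against 48.2%, and 20 (28.2%, interval 19.0% to 39.5%) with ABA, against 13.1%. Of the 77 sites lost with ABA, 38 (49.4%, interval 38.5% to 60.3%) had been open at 8 h, against 68.4% over the series. All sites open at 24 h were also called at 8 h less often on the arm, 235 of 303 against 14375 of 17121. How far the shares with ABA and at 8 h follow the general share of such calls on the arm was not tested.

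Changing sites were low and narrow compared with kept ones, in part by definition, since kept sites merge peaks of more lists and passed the limit in both groups. Sites lost at 8 h had a median pileup of 19.75 tags in the dark and a median width of 174.5 bp, while kept sites had 28 tags and 309 bp. Over the series the medians were 19 tags and 182 bp for lost and 25.5 tags and 333 bp for kept sites. Sites gained with IAA had a median of 21.5 tags and 182 bp, and sites gained with ABA 23 tags and 195 bp. The lowest of the sites lost at 8 h had 12 tags and the highest 39.5.

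At sites kept in both groups, pileups moved little. After each pileup was divided by the median of its list at sites called in all lists, the median ratio on the arm was 0.936 at 8 h over dark (series 1.04), 0.984 at 24 h over dark (series 1.04) and 1.07 at 24 h over 8 h (series 1.01). It was 1.09 with ABA over 24 h (series 1.02) and 0.969 with IAA over 24 h (series 0.970). Relative to library size, which moves the series median for 8 h over dark to 0.824 and for ABA over 24 h to 0.724, the medians on the arm were 0.745 and 0.772. On either scale the arm was below the series at 8 h over dark and above it with ABA.

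Few kept sites changed by at least 1.5 times. At 8 h over dark 5 of 271 sites were higher (1.85%, background 6.66%) and 15 lower (5.54%, background 3.28%). At 24 h over 8 h 8 of 235 were higher (3.40%, background 1.8%) and 4 lower (1.70%, background 1.91%). At 24 h over dark 10 of 282 were higher (3.55%, background 4.03%) and 8 lower (2.84%, background 2.06%). With ABA over 24 h 6 of 217 were higher (2.76%, background 3.79%) and 3 lower (1.38%, background 1.96%). With IAA over 24 h 1 of 267 was higher (0.375%, background 1.1%) and 6 lower (2.25%, background 2.25%). At 8 h over dark the lower sites of the arm outnumbered the higher ones, where over the series the higher ones were the larger number. The direction of the others depended on the scale. By library size, 1 kept site was higher (0.369%, background 0.647%) and 84 lower (31.0%, background 18.5%) at 8 h over dark. At 24 h over dark 1 was higher (0.355%, background 0.178%) and 85 lower (30.1%, background 21.2%). With ABA over 24 h none was higher (background 0.253%) and 51 were lower (23.5%, background 33.4%), and with IAA over 24 h 14 were higher (5.24%, background 4.2%) and 2 lower (0.749%, background 0.515%). The lower sites were thus above their background in light and below it with ABA.

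The sites with the highest pileups among the changed ones were examined in every list. A value of 0 tags in what follows means that the list had no peak at the site, not that no tags lay there, so no fold is given. The highest site lost at 8 h and at 24 h was chr11:14398233-14398534. It had pileups of 37 and 42 tags in the dark and no peak in the other 8 lists. Its local background was high, so that 34 or 35 tags would have been needed for a call at 8 h, and 28 in the dark. At 24 h 35 tags were needed, and with IAA 33 and 35. With ABA 43 and 42 were needed, at or above both dark pileups. The dark call thus stood above its own limit, and tags up to the limits of the other groups may have gone uncalled there.

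A second dark-only site, chr11:20944016-20944222, lay on lower background. It had 34 and 37 tags in the dark and no peak in the other 8 lists, where between 19 and 24 tags were needed. Its pileup in the dark was thus above the limit of every group.

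The site chr11:24058933-24059308 was missing at 8 h alone. It had no peak at 8 h, where 19 tags were needed, against 39 and 40 tags in the dark. At 24 h it had 28 and 30 tags, with ABA 36 and 36 and with IAA 30 and 34. The 8 lists with a peak had their summits within 5 bp of each other.

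The site chr11:18757447-18757672 was the highest of those gained in light. It had 43 and 43 tags at 8 h and 52 and 54 at 24 h, and no peak in the dark, where 27 or 28 tags were needed. With ABA it had 55 and 55 tags and with IAA 50 and 52. It was called in every group that had been in light, with summits within 12 bp, and in neither dark list.

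Near 20.2 Mb, 3 sites close together were open at 8 h only, with a site of another pattern among them. The site chr11:20182689-20183138 had 31 and 34 tags at 8 h, chr11:20188893-20189220 had 30 and 33, and no other list had a peak at either. Between them lay chr11:20183253-20183589, noted after its values were seen, with 25 and 28 tags at 8 h and no peak in the other 8 lists. Also between them lay chr11:20187265-20187676, with 30 and 30 tags at 8 h. It was called in the dark too (17 and 16 tags), with IAA (21 and 16) and in 1 list at 24 h (21). The limits in the other groups were 12 to 18 tags at chr11:20182689-20183138 and 11 to 16 at chr11:20188893-20189220. The 3 sites open at 8 h only were therefore gained at 8 h against dark and lost at 24 h against 8 h.

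At 24 h, chr11:18423158-18423273 had 30 and 28 tags and no peak in the other 8 lists, where 11 to 16 tags were needed. It is 116 bp wide and stands at the far edge of the gap of 308.1 kb. The site chr11:25210394-25210569 had 32 and 30 tags at 24 h and no peak at 8 h, where 17 tags were needed. It had 23 and 27 tags in the dark and 25 and 26 with IAA, and no peak with ABA, where 21 tags were needed. The first was thus called at 24 h alone, and the second was missing from 8 h and ABA.

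The highest site gained with ABA was chr11:16927401-16927584, with 51 and 51 tags with ABA and no peak in the other 8 lists, where 11 to 14 tags were needed. This was the highest pileup of any site of the arm called in a single group among those named here. The next, chr11:21982168-21982362, had 31 and 32 tags with ABA and no peak at 24 h, where 13 or 14 tags were needed. It also had 24 and 27 tags in the dark, 20 and 19 at 8 h and 19 and 19 with IAA, so 24 h was the only group without it.

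The highest site lost with ABA was chr11:24010529-24010752. It had no peak with ABA, where 22 tags were needed, against 33 and 39 tags at 24 h. The other groups had it too, with 49 and 53 tags in the dark, 47 and 46 at 8 h and 36 and 36 with IAA. The site chr11:15439950-15440338 had the same pattern, with no peak with ABA, where 24 tags were needed, and 32 and 31 tags at 24 h. Its pileups in the dark, at 8 h and with IAA lay between 22 and 28 tags, close to the ABA limit.

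The highest sites gained with IAA were called with IAA alone. The site chr11:17837196-17837505 had 47 and 45 tags with IAA, and chr11:20392951-20393101 had 36 and 39, and neither had a peak in another list. The limits at 24 h were 21 or 22 tags at the first and 27 or 28 at the second. With ABA they were 26 at the first and 34 and 33 at the second, close to its pileups with IAA. Tags up to these limits may have gone uncalled there. Of the sites lost with IAA, chr11:16739797-16739922 had no peak with IAA, where 16 tags were needed, against 29 and 28 tags at 24 h and 32 and 31 in the dark.

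Sites called in all 10 lists reached far higher pileups. The highest, chr11:17630022-17630474, had 140 and 139 tags in the dark, 135 and 136 at 8 h and 146 and 145 at 24 h, and 138 and 137 with ABA and 120 and 121 with IAA. The site chr11:14553189-14553471 lay between 125 and 145 tags in all lists, and chr11:23379509-23379825 between 110 and 150. In each of them the highest and lowest lists differed by less than 1.5 times. The 3 widest sites, chr11:27114918-27116858 (1941 bp), chr11:21484895-21486065 (1171 bp) and chr11:14704319-14705411 (1093 bp), were also called in all 10 lists, with pileups between 33 and 57 tags. At the widest of them the summits of the lists lay up to 1059 bp apart, at the next up to 435 bp and at the last up to 82 bp.

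Some lost sites were neighbours of each other. With 174 of the 478 sites of the dark lost at 8 h, neighbouring losses occur in a random order too. Whether there were more than that was not tested. Counted along the sites open in the dark, the 174 sites lost at 8 h formed 102 runs, and 76 of them lay in runs of 3 or more. The longest had 5 members, and one such run spanned 96.8 kb from chr11:19069178 to chr11:19166013. Its 5 sites had between 15 and 29 tags in the dark. At 24 h, 4 of them were called in both lists, with 19 to 25 tags, and the other in 1 list, with 18. With IAA all 5 were called in both lists, with 20 to 32 tags, and with ABA 3 were, with 23 to 30 tags. The run was thus missing as a whole at 8 h and largely present again at 24 h.

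With ABA, the longest run of sites lost against 24 h had 5 members from chr11:25187035 to chr11:25257971, a span of 70.9 kb. These sites had 16 to 32 tags at 24 h, 17 to 32 in the dark and 16 to 37 with IAA, and no peak with ABA. At 8 h, 2 of the 5 were called in both lists. At 24 h against dark, one run of 5 lost sites spanned 51.5 kb from chr11:16972627 to chr11:17024110, and 3 of its members were called in the dark lists alone. For 24 h against 8 h and for IAA against 24 h the longest runs had 3 members. How often runs of these lengths arise by chance was not tested.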

How the data were processed

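ATAC-seq peak lists of rice seedlings, 10 in 5 groups of 2, were taken as deposited. According to the study and the submitters' processing notes, reads were aligned with Bowtie2 2.3.2 to MSU7.0, a japonica genome while the plants were indica, filtered with SAMtools 1.9, and peaks were called with MACS2. The sources name no shift of reads for the Tn5 cut. Per peak, the deposited lists give a score (10 times the −log10 q-value, not used), the ratio (fold) over background, the −log10 p-value, the −log10 q-value and the summit offset in bp, all as the authors' peak caller wrote them. Pileup and local background were solved from the authors' fold and −log10 p-value for all 200537 peaks (largest error 0.000203 in −log10 p). At 19237 summits shared on one base by lists of different groups, the background relative to the list's floor was the same within 0.5%, so the lists had been called against a common control track, whose nature is not given in the sources used here.

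Sites, windows and changes were computed with Python 3.11.15 and NumPy 2.4.6, and the scripts were tested on simulated data. Groups came from the labels. The members, lists and alternatives were chosen with earlier results of these data known. Sites named in the text were the 2 gained and 2 lost sites of the highest mean pileup per comparison, the 3 highest sites called in all lists, the 3 widest sites, the 3 longest gaps, and the extreme windows; sites in runs were named after their values were seen. No genome or annotation of MSU7.0 was used here, so genes, sequence motifs and the planned gene lists were not analysed, and no sequence is shown. Alternatives were a stricter threshold (−log10 q at or above 5), equal list lengths, the common relative height, peaks covering 50% or more of a site, presence in either list, omission of each list, bounds at 13 and 29 Mb and windows shifted by 0.5 Mb.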

Additional observations from a re-analysis of the deposited data

How the results depend on the processing

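With every list cut to the length of the shortest, losses on the arm numbered 83 for 8 h against dark and 19 for 24 h against 8 h. For 24 h against dark there were 57 losses and 27 gains. Under that setting ABA against 24 h gave 63 gains and 38 losses (lost share 37.6%, more gains than losses), and IAA against 24 h gave 32 gains and a lost share of 54.9%, so both balances turned. Equal lengths take out the balance of the series by construction, so these turns are in part set by the setting. Sites of the arm open in the dark alone numbered 24 there, against 78 as deposited. The median width was then 241 bp and the median spacing 11827 bp. At the common relative height, 24 h against dark had 23 gains and the median spacing was 9110.5 bp. With presence in either list 24 h gained 77 sites over 8 h and 24 over dark, and IAA gained 122 and lost 42. With a −log10 q of at least 5, ABA gained 21 sites, IAA lost 17 and the median spacing was 9201.25 bp. Omission of single lists gave 15 to 21 gains for 24 h against dark and 28 to 41 losses with IAA, both highest without the second 24 h list. All other counts of sites, gains and losses stayed within 1.5 times under these settings. Why these values moved was not tested, beyond the fewer peaks left by the shorter lists and stricter threshold. No paired analysis was possible because the results come from no test, with 1 sample per group. The peak lists hold no reads below the calling height, so a site without a peak may have been open at a lower level, and the floor differed between groups.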
